A study of Mus musculus with 12 samples.

Results

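The 41 genes described here are nuclear genes of respiratory complexes II, III, IV and V and of cytochrome c, measured in CD4 and CD8a cells of mouse spleen. They were taken by symbol, as every listed gene of the Sdha to Sdhd, Uqcr, Cox4 to Cox8 and Atp5 families plus Cyc1 and Cycs, from 3684 genes listed in all. CD4 cells had values for 40 of them among 2999 genes, and CD8a cells for 35 among 2851. Complex II gave 2 genes, complex III gave 9, cytochrome c gave 1, complex IV gave 12 and complex V gave 17. The succinate dehydrogenase subunits Sdha and Sdhc were not among the listed genes of either cell type.

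These complexes sit in the inner mitochondrial membrane. Succinate dehydrogenase (complex II) passes electrons from succinate to ubiquinone, the cytochrome bc1 complex (complex III) passes them to cytochrome c, and cytochrome c oxidase (complex IV) hands them to oxygen while protons are pumped. ATP synthase (complex V) uses the proton gradient to make ATP. Complexes III, IV and V are built from nuclear subunits and from a few subunits encoded by mitochondrial DNA, whereas complex II is encoded by the nucleus alone. Resting T cells draw on this pathway for most of their ATP, and activated T cells enlarge both it and glycolysis.

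Spleen cells came from 12 mice, 3 in each of 4 groups: S100a9-/- (KO) mice on C57Bl6/J exposed to repeated social defeat, KO controls without stress, C57Bl6/J (WT) mice exposed to the same stress, and WT controls. Social defeat, in which a mouse is repeatedly overcome by an aggressor, ran for 10 days and was followed by 1 day of behaviour tests, with spleens taken on day 12. S100a9 encodes a calcium-binding protein of neutrophils and monocytes, and neither the deleted part nor the age or sex of the mice is given in the sources used here. Single-cell libraries read the 3' ends of transcripts, and the values are the authors' average expression of a gene per mouse in each cell type, on a linear scale presumed to total 10000. The listed genes summed to between 7367 and 8225 per mouse in CD4 cells and between 7419 and 8270 in CD8a cells. The number of cells behind an average, and hence its depth, is unknown.

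Labels and samples were checked first. S100a9 lay between 0.0228 and 0.0294 in CD4 cells of stressed KO mice and between 0.0418 and 0.0493 in KO controls, against 0.0595 to 0.111 in stressed WT mice and 0.00449 to 0.0167 in WT controls. In CD8a cells it lay between 0.00779 and 0.0403 in stressed KO mice and between 0.0307 and 0.0461 in KO controls, against 0.0368 to 0.0889 in stressed WT mice and 0.00415 to 0.0337 in WT controls. KO controls thus lay above WT controls in CD4 cells and overlapped them in CD8a cells, where stressed KO and WT mice overlapped too. A read from the 3' end can arise outside the deleted part, so this does not check the genotype labels. Cd8a averaged between 3.38 and 5.27 per mouse in CD8a cells, against 0.0526 to 0.269 in CD4 cells, where Cd4 averaged between 1.66 and 3.01. Both markers were lower after stress: Cd4 in CD4 cells averaged 2.08 in stressed KO mice, against 2.67 in KO controls, and 1.75 in stressed WT mice, against 2.77 in WT controls, and Cd8a in CD8a cells averaged 3.62 in stressed KO mice, against 4.83 in KO controls, and 3.92 in stressed WT mice, against 4.65 in WT controls. Stressed and control mice did not overlap in any of these 4 sets. In the limma fits of the listed genes Cd4 fell by 0.64 log2 units in WT mice (adjusted p = 3.2e-05) and Cd8a by 0.40 in KO mice (adjusted p = 0.00060). A single mouse stood apart: KO control 3 was the lowest of the 3 KO controls for 36 of the 40 genes in CD4 cells and for 30 of the 35 in CD8a cells, against 47.2% and 41.1% of all listed genes. Every result on stress in KO mice below rests on 3 controls that include it.

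Promoter sequences are shown because the nuclear genes of respiration are known to share binding sequences for the factors NRF1, ETS (which includes GABP) and YY1. RefSeq promoters (GRCm38.p6, 250 bases before to 50 after the start) matched 31 of the 41 genes. They were searched on both strands for CCGGAAG (ETS), AAGATGGCG (YY1) and the NRF1 palindrome that stands in capitals in the first part of the Cox6a1 line below, and no promoter in the table held overlapping matches of different motifs. At least 1 of these motifs stood in 16 of the 31, against 12.1% of 27025 genes with a promoter in the table and 30.2% of 2652 listed genes. The ETS letters stood in 13, the NRF1 letters in 4 and the YY1 letters in 2, against 9.93%, 1.07% and 1.64% of all genes and 25.3%, 2.41% and 4.26% of the listed genes, among which the genes described here were found. With 31 of 41 genes matched, fewer than 80% had a sequence, so these shares describe the matched genes and are void as a check of the whole group. Shown are Atp5e (chr2:174464052-174464351, minus strand), Atp5h (chr11:115419870-115420169, minus strand), Atp5j2 (chr5:145191492-145191791, minus strand), Cox8a (chr19:7217567-7217866, minus strand) and Uqcrh (chr4:116075021-116075320, minus strand), which hold a motif and passed the test in every stress comparison described below. Atp5j also meets both terms, with an ETS and a YY1 match, and is not shown. Beside the genes shown stands Cox6a1 (chr5:115348909-115349208, minus strand), which holds 2 of the motifs. Cox6a1 did not pass the test in the 1 stress comparison for which it was listed. Each runs 5′ to 3′ on the gene's strand, with the motif in capitals: ETS (as its reverse complement CTTCCGG) in Atp5e, Atp5h, Cox8a, Uqcrh and Cox6a1, YY1 in Atp5j2 and NRF1 in Cox6a1.
Atp5e: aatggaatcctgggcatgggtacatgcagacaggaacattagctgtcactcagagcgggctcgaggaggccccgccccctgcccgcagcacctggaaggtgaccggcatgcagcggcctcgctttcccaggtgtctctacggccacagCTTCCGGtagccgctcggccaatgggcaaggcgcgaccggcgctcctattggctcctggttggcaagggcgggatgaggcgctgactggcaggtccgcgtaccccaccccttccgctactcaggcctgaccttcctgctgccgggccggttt
Atp5h: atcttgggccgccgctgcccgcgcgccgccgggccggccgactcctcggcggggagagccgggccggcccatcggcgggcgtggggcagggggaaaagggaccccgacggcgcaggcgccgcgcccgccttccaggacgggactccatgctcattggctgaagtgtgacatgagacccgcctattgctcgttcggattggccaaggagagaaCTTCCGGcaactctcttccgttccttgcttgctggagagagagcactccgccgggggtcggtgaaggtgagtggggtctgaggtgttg
Atp5j2: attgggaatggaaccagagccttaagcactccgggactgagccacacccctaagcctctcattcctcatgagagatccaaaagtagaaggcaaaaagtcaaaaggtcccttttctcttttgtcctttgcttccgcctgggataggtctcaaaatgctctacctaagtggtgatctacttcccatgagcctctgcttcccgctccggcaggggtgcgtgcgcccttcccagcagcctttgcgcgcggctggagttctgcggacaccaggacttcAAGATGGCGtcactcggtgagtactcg
Cox8a: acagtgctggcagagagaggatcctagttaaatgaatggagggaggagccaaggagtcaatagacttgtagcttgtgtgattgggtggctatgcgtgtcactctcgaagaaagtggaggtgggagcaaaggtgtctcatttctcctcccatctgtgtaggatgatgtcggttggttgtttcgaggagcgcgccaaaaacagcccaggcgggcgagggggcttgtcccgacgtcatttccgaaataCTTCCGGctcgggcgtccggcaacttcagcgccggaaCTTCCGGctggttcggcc
Uqcrh: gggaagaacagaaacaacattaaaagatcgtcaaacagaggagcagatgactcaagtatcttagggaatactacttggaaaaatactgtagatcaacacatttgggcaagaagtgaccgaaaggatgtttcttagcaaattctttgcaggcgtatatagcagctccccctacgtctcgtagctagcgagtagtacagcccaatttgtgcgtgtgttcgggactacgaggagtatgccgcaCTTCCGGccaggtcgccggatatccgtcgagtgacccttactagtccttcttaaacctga
Cox6a1: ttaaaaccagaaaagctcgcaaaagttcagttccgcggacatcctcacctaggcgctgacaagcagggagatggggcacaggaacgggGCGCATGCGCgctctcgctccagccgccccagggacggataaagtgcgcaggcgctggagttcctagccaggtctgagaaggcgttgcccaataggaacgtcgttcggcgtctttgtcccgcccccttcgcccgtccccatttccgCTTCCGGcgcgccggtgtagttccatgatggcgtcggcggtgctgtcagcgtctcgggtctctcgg

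Stress was followed by higher levels of many of these genes and by a lower level of none that passed the test. A gene is said here to rise where limma's test on log2(value + 0.1) gave an adjusted p under 0.05, with p-values adjusted over all genes the authors listed for that comparison. In CD4 cells 18 of 34 listed genes rose in KO mice and 23 of 39 in WT mice, against 19.5% and 31.0% of all genes tested. In CD8a cells 19 of 33 rose in KO mice and 20 of 33 in WT mice, against 17.9% and 26.7% of all genes. None fell in any of the 4 comparisons, where 20.0% and 28.9% of all genes fell in CD4 cells of KO and WT mice and 22.1% and 41.5% in CD8a cells. The authors listed genes for each comparison by a rule that is not given in the sources used here, on these same mice, so the counts describe listed genes. Most of the genes are short, and among listed genes with transcripts under 1000 bases 38.8% and 60.0% rose in CD4 cells of KO and WT mice and 38.4% and 54.4% in CD8a cells, against which the short genes described here are set at the end. Each value is an average over the cells of a mouse, so a difference in the number of expressing cells and one in RNA per cell cannot be told apart. All 3 stressed mice lay above all 3 controls for 20 of 34 genes in CD4 cells of KO mice (all genes, 28.8%) and 26 of 39 in those of WT mice (36.4%). The same held for 22 of 33 genes in CD8a cells of KO mice (all genes, 26.6%) and 27 of 33 in those of WT mice (31.8%).

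The changes were modest in size. Their median was 0.26 log2 units in CD4 cells of KO mice and 0.26 in those of WT mice, and 0.25 and 0.27 in CD8a cells, against 0.13, 0.15, 0.11 and 0.090 over all genes tested. The listed genes differed between the genotypes, so these medians do not compare KO with WT mice over the same genes. The largest single change was 0.66 ± 0.081 (SE), for Cox5b in CD4 cells of WT mice, which is 1.58-fold on the log2(value + 0.1) scale. Without KO control mouse 3, 11 of 34 genes rose in CD4 cells of KO mice and 11 of 33 in CD8a cells, against 12.8% and 12.6% of all genes, with medians of 0.21 and 0.22. With every listed gene of a cell type fitted together over the 4 groups, 34 of 40 changes were positive in CD4 cells of KO mice and 36 of 40 in those of WT mice, against 49.8% and 59.8% of all 2999 genes. In CD8a cells 32 of 35 were positive in KO mice and 32 of 35 in WT mice, against 51.8% and 51.6% of all 2851 genes.

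The same 12 genes rose in all 4 stress comparisons: Uqcrh of complex III, Cox4i1, Cox5b, Cox6c, Cox7a2, Cox7a2l and Cox8a of complex IV, and Atp5e, Atp5h, Atp5j, Atp5j2 and Atp5pb of complex V. They come from 31 genes that were listed for all 4. In all, 30 of the 41 genes rose in at least 1 comparison and 11 in none. The shares of all genes that rose in all 4 comparisons or in at least 1 are not given here. The 11 were Cyc1, Uqcrc1, Uqcrc2, Uqcrq, Cox6a1, Cox7c, Atp5a1, Atp5b, Atp5g3, Atp5k and Atp5l. Among them only Uqcrc2, Uqcrq and Cox7c were listed, and so tested, in all 4 comparisons. Atp5k was listed for 3, Cyc1, Atp5g3 and Atp5l for 2, and Uqcrc1, Cox6a1, Atp5a1 and Atp5b for 1. Of the 12, 10 had a promoter in the table and 6 held a motif, and of the other 29, 21 had a promoter and 10 held a motif.

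**Figure D1:**
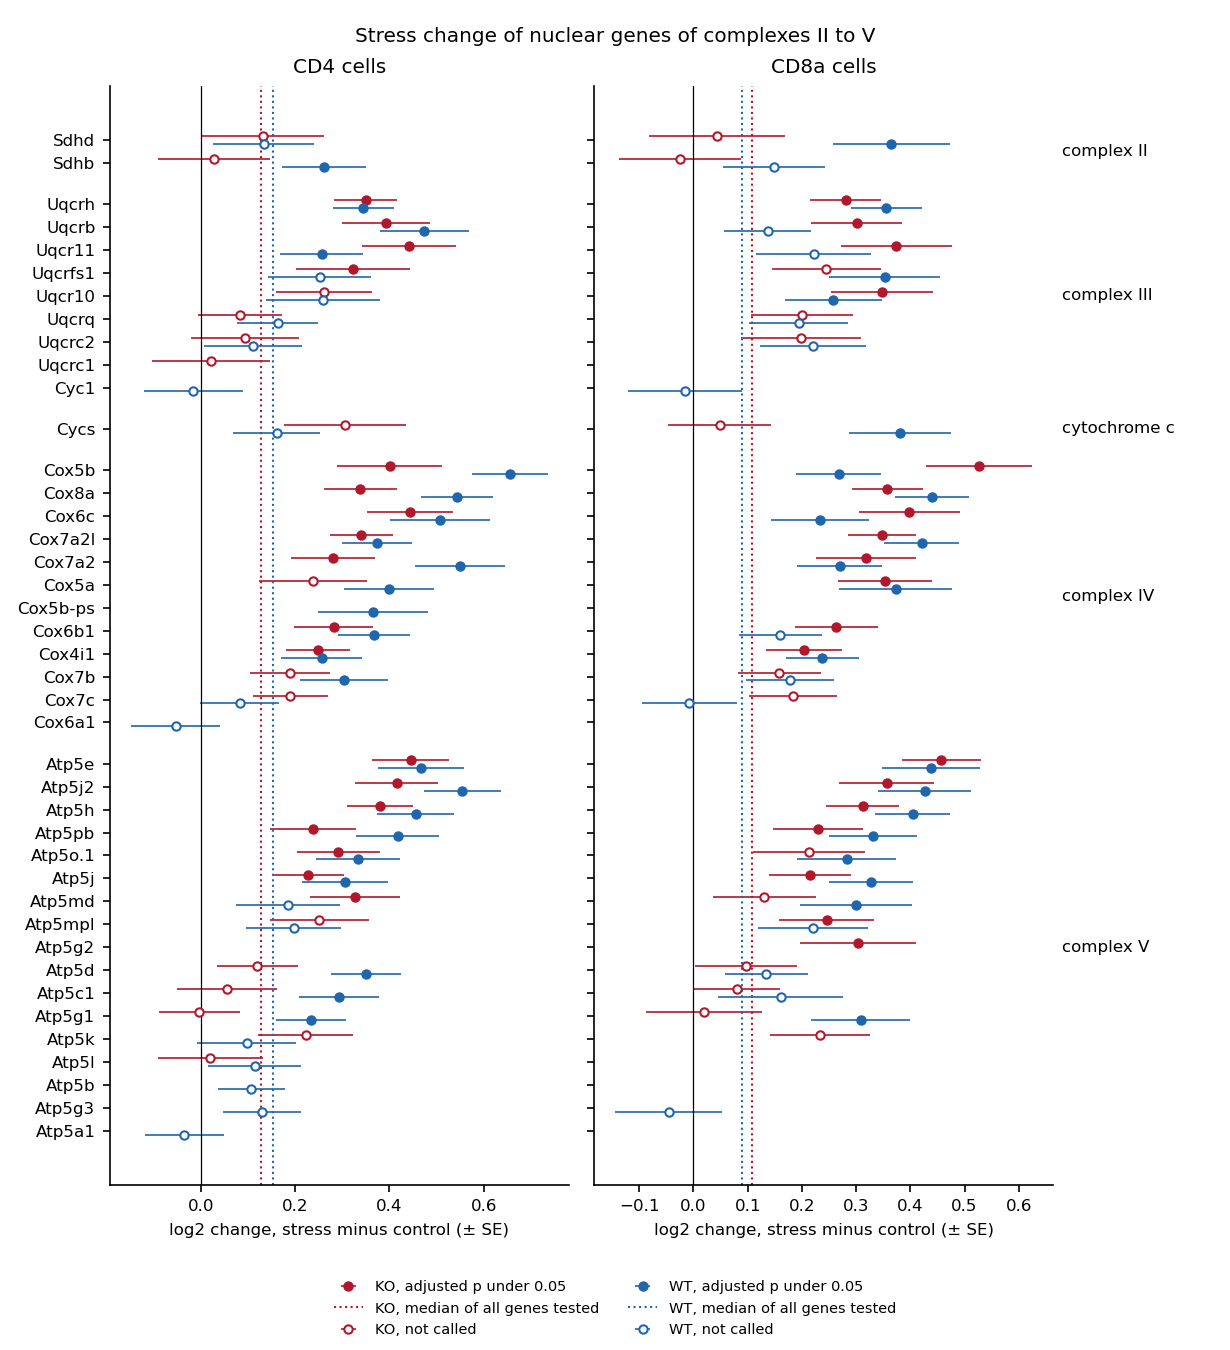
Log2 change between stressed and control mice (x axis, ± SE, 3 mice against 3) for each gene, grouped by complex, in CD4 (left) and CD8a cells (right), for KO (red) and WT mice (blue). Filled points passed the test (18 and 23 genes in CD4 cells, 19 and 20 in CD8a cells), open points did not, and dotted lines mark the median of all genes tested; filled points all lie right of 0.

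Complex II was represented by its iron-sulphur subunit Sdhb (chr4:140961203-140979193, plus strand, GRCm38) and by Sdhd (chr9:50596357-50603812, minus strand), one of the 2 membrane anchors. Each rose in 1 of the 4 comparisons, both times in WT mice. In CD4 cells Sdhb was 0.904, 0.906 and 0.977 in stressed WT mice, against 0.756, 0.769 and 0.750 in WT controls, without overlap, a log2 change of 0.26 ± 0.090 (SE, adjusted p = 0.024). That call held in 2 of the 6 fits that left out 1 mouse (adjusted p of 0.029 to 0.091), being lost without any one of the 3 controls or without stressed mouse 3, and it was lost with the mouse number as a block. Sdhb in KO mice was 0.746, 0.790 and 0.925 in stressed KO mice, against 0.885, 0.840 and 0.686 in KO controls, and the groups overlapped (log2 change of 0.028 ± 0.12 SE, adjusted p = 0.89). Sdhd in CD8a cells was 0.484, 0.537 and 0.555 in stressed WT mice, against 0.371, 0.423 and 0.363 in WT controls, again without overlap (log2 change of 0.36 ± 0.11 SE, adjusted p = 0.0085). Its KO mice overlapped. They held 0.508, 0.467 and 0.521 when stressed, against 0.576, 0.480 and 0.399 in controls (log2 change of 0.043 ± 0.12 SE, adjusted p = 0.83). Sdhb had a log2 change of -0.024 ± 0.11 (SE, adjusted p = 0.90) in CD8a cells of KO mice and of 0.15 ± 0.094 (SE, adjusted p = 0.17) in those of WT mice. Sdhd had a log2 change of 0.13 ± 0.13 (SE, adjusted p = 0.46) in CD4 cells of KO mice and of 0.13 ± 0.11 (SE, adjusted p = 0.30) in those of WT mice. The difference in stress change between KO and WT mice did not pass its own test for either gene (-0.23 ± 0.14 SE for Sdhb in CD4 cells, -0.32 ± 0.17 for Sdhd in CD8a cells).

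In complex III the genes that rose were small accessory subunits and the Rieske protein. The counts were 4 of 8 genes in CD4 cells of KO mice, 3 of 8 in those of WT mice, 4 of 7 in CD8a cells of KO mice and 3 of 8 in those of WT mice. Of all genes tested, 19.5%, 31.0%, 17.9% and 26.7% rose in that order, and the counts in WT mice lie near these shares. Uqcrh (chr4:116066965-116075071, minus strand), the hinge protein that helps cytochrome c1 meet cytochrome c, was the one that rose in all. In CD4 cells it was 7.94, 8.32 and 8.11 in stressed KO mice, against 6.41, 6.63 and 6.03 in KO controls, a change of 0.35 ± 0.066 (SE, adjusted p = 0.00046). Uqcrh in WT mice was 7.62, 7.80 and 8.04 in stressed WT mice, against 6.38, 6.16 and 5.87 in WT controls, a change of 0.34 ± 0.065 (SE, adjusted p = 0.00053). All 6 stressed mice thus lay above all 6 controls. In CD8a cells Uqcrh was 8.12, 7.30 and 7.51 in stressed KO mice, against 6.48, 6.21 and 6.13 in KO controls (log2 change of 0.28 ± 0.065 SE, adjusted p = 0.0023). WT mice held 7.86, 8.09 and 8.24 when stressed, against 6.55, 6.28 and 6.02 in controls (log2 change of 0.36 ± 0.066 SE, adjusted p = 0.00029), and neither genotype overlapped.

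The other small subunits of complex III followed in part. Uqcrb rose in 3 comparisons, by 0.39 and 0.47 in CD4 cells of KO and WT mice and by 0.30 in CD8a cells of KO mice, and was 0.14 ± 0.081 (SE, adjusted p = 0.14) in CD8a cells of WT mice. Uqcr11 rose in 3 as well, by 0.44 and 0.26 in CD4 cells and by 0.37 in CD8a cells of KO mice. Uqcr10 rose in CD8a cells of both genotypes, by 0.35 in KO and 0.26 in WT mice. The Rieske iron-sulphur protein Uqcrfs1 rose by 0.32 in CD4 cells of KO mice and by 0.35 in CD8a cells of WT mice. Uqcrq had changes between 0.083 and 0.20 and passed in none of 4, and the core protein Uqcrc2 had changes between 0.094 and 0.22 and also passed in none. The other core protein, Uqcrc1, was listed for stress in CD4 cells of KO mice and had a change of 0.021 ± 0.13 (SE, adjusted p = 0.92).

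Cyc1 (chr15:76343523-76346260, plus strand), the cytochrome c1 whose haem passes electrons from complex III to cytochrome c, had the smallest mean change of the complex. It was listed for stress in WT mice. Cyc1 in CD4 cells was 0.624, 0.584 and 0.710 in stressed WT mice, against 0.689, 0.614 and 0.636 in WT controls (log2 change of -0.016 ± 0.10 SE, adjusted p = 0.90). In CD8a cells it was 0.708, 0.607 and 0.679 in stressed WT mice, against 0.746, 0.621 and 0.653 in WT controls (log2 change of -0.015 ± 0.10 SE, adjusted p = 0.90), and the groups overlapped in both cell types. Its sign turned positive, still short of the threshold, with median centring or with ribosomal and mitochondrial genes taken out of the total.

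Cytochrome c itself, Cycs (chr6:50562563-50566538, minus strand), carries electrons from complex III to complex IV and triggers cell death when it leaves mitochondria. It rose in 1 comparison, in CD8a cells of WT mice. Its level there was 1.00, 0.882 and 0.907 in stressed WT mice, against 0.667, 0.694 and 0.710 in WT controls, without overlap (log2 change of 0.38 ± 0.094 SE, adjusted p = 0.0026). In CD8a cells of KO mice it was 0.913, 0.873 and 0.828 in stressed KO mice, against 0.889, 0.819 and 0.809 in KO controls, with overlap (log2 change of 0.049 ± 0.095 SE, adjusted p = 0.74). The 3 KO controls of CD8a cells all lay above the 3 WT controls, while the stressed mice of the genotypes overlapped. In CD4 cells Cycs was 1.00, 1.03 and 0.798 in stressed KO mice, against 0.895, 0.677 and 0.669 in KO controls (log2 change of 0.31 ± 0.13 SE, adjusted p = 0.075). WT mice held 0.975, 0.868 and 0.875 when stressed, against 0.830, 0.795 and 0.773 in controls (log2 change of 0.16 ± 0.093 SE, adjusted p = 0.15), where the groups did not overlap but the test was not passed. In CD4 cells of KO mice the test was passed without KO control 1 (adjusted p = 0.012) or stressed KO mouse 3 (0.035), with the block (0.031) and with the 4 groups in 1 fit (0.045).

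In complex IV most of the listed genes rose. The count was 7 of 10 in CD4 cells of KO mice, 10 of 12 in those of WT mice, 8 of 10 in CD8a cells of KO mice and 7 of 10 in those of WT mice. The shares of all genes tested were 19.5%, 31.0%, 17.9% and 26.7% in the same order. Cox5b (chr1:36691449-36693681, plus strand), a zinc-binding subunit that faces the matrix, had the largest mean change. In CD4 cells it was 2.31, 2.1 and 2.20 in stressed KO mice, against 1.79, 1.86 and 1.33 in KO controls (log2 change of 0.40 ± 0.11 SE, adjusted p = 0.0093). Cox5b in WT mice was 2.64, 2.32 and 2.54 in stressed WT mice, against 1.52, 1.63 and 1.49 in WT controls (log2 change of 0.66 ± 0.081 SE, adjusted p = 2.3e-05). Neither genotype overlapped. In CD8a cells Cox5b was 2.36, 2.45 and 2.05 in stressed KO mice, against 1.66, 1.67 and 1.34 in KO controls (log2 change of 0.53 ± 0.10 SE, adjusted p = 0.00036). In WT mice it was 2.30, 2.05 and 2.25 in stressed WT mice, against 1.80, 1.78 and 1.84 in WT controls (log2 change of 0.27 ± 0.079 SE, adjusted p = 0.0086), and here too the groups lay apart.

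Cox5b has a near-identical copy among the listed genes. Cox5b-ps (chr13:21501029-21501418, minus strand, annotated as Gm11273) is 99.2% identical to Cox5b over 390 aligned bases. It was listed for CD4 cells, where it changed by 0.37 ± 0.12 (SE, adjusted p = 0.016) in WT mice, and its SD reached 51.2% of its mean in KO controls. How reads were shared between the pair is not given in the sources used here, so the split between them is uncertain.

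Cox4i1 (chr8:120668222-120674207, plus strand), the ubiquitous form of the subunit through which ATP regulates the enzyme, rose in all 4 comparisons. In CD4 cells it was 8.58, 7.89 and 8.62 in stressed KO mice, against 7.29, 7.09 and 6.69 in KO controls (log2 change of 0.25 ± 0.068 SE, adjusted p = 0.0084). WT mice held 7.36, 7.63 and 8.82 when stressed, against 7.26, 6.57 and 6.05 in controls (log2 change of 0.26 ± 0.087 SE, adjusted p = 0.022). The gap between the nearest stressed and control WT mice was small, with no overlap. In CD8a cells Cox4i1 was 7.84, 7.02 and 6.72 in stressed KO mice, against 6.48, 6.18 and 6.01 in KO controls (log2 change of 0.20 ± 0.071 SE, adjusted p = 0.032). WT mice held 6.75, 6.85 and 7.41 when stressed, against 6.01, 5.81 and 5.94 in controls (log2 change of 0.24 ± 0.067 SE, adjusted p = 0.0066), again without overlap. The Cox4i1 call in CD4 cells of WT mice held in 3 of 6 fits that left out 1 mouse (adjusted p of 0.0097 to 0.098), being lost without WT control 2, WT control 3 or stressed WT mouse 3. The call in CD8a cells of KO mice held in 2 of 6 (0.019 to 0.15), being lost without KO control 2, KO control 3, stressed KO mouse 1 or stressed KO mouse 2.

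The remaining genes were placed with complex IV by their Cox symbols. For Cox7a2l the symbol alone does not make its product a subunit of the enzyme. Cox8a rose by 0.34 ± 0.078 (SE) and 0.54 ± 0.077 in CD4 cells of KO and WT mice and by 0.36 ± 0.066 and 0.44 ± 0.068 in CD8a cells. Cox7a2l rose by 0.34 ± 0.067 and 0.37 ± 0.074 in CD4 cells and by 0.35 ± 0.063 and 0.42 ± 0.069 in CD8a cells. Its values were 7.26, 7.21 and 6.88 in stressed KO mice, against 5.74, 5.61 and 5.36 in KO controls in CD8a cells. Those of WT mice were 7.14, 7.0 and 7.25 when stressed and 5.53, 4.95 and 5.44 in controls, so all 6 stressed mice lay above all 6 controls. Cox6c and Cox7a2 rose in all 4 comparisons, Cox6c by 0.23 to 0.51 and Cox7a2 by 0.27 to 0.55. Cox5a and Cox6b1 rose in 3 each, Cox6b1 not in CD8a cells of WT mice and Cox5a not in CD4 cells of KO mice (log2 change of 0.24 ± 0.11 SE, adjusted p = 0.12).

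Cox6a1, Cox7c and Cox7b of complex IV rose in 1 comparison at most. Cox6a1 (chr5:115345642-115348981, minus strand), the non-muscle form of its subunit, was listed for CD4 cells. It was 1.95, 1.72 and 2.13 in stressed WT mice, against 2.11, 1.82 and 2.09 in WT controls, with overlap (log2 change of -0.054 ± 0.095 SE, adjusted p = 0.64). KO mice, for which it was not listed as a stress gene, held 1.95, 2.02 and 2.07 when stressed and 2.20, 2.03 and 1.86 in controls, also with overlap. Cox7c had changes between -0.0075 and 0.19 and did not pass in any of 4. Cox7b rose in CD4 cells of WT mice (log2 change of 0.30 ± 0.093 SE, adjusted p = 0.013) and had changes of 0.16 to 0.19 in the others, without passing.

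Complex V consists of a soluble F1 head, where ATP is made, a rotor with a ring of c subunits in the membrane, and a stalk that joins head and membrane. Of its genes 7 of 13 rose in CD4 cells of KO mice, 9 of 16 in those of WT mice, 7 of 13 in CD8a cells of KO mice and 8 of 12 in those of WT mice. Among all genes tested 19.5%, 31.0%, 17.9% and 26.7% rose in the same order. Atp5e (chr2:174461072-174464105, minus strand), which encodes the epsilon subunit at the foot of the head, had the largest mean change of the complex. In CD4 cells it was 6.0, 6.45 and 6.32 in stressed KO mice, against 4.55, 5.10 and 4.11 in KO controls (log2 change of 0.45 ± 0.082 SE, adjusted p = 0.00034). Atp5e in WT mice was 7.84, 7.04 and 6.80 in stressed WT mice, against 4.51, 5.40 and 5.74 in WT controls (log2 change of 0.47 ± 0.091 SE, adjusted p = 0.00070). All stressed mice lay above all controls. In CD8a cells Atp5e was 6.48, 6.03 and 6.36 in stressed KO mice, against 4.66, 4.87 and 4.16 in KO controls (log2 change of 0.46 ± 0.072 SE, adjusted p = 7.5e-05). In WT mice it was 7.48, 6.68 and 6.32 in stressed WT mice, against 4.40, 5.46 and 5.22 in WT controls (log2 change of 0.44 ± 0.090 SE, adjusted p = 0.00069), and all 6 stressed mice again lay above all 6 controls.

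Of the other subunits of the head and its shaft, 2 rose, each in 1 comparison. Atp5a1, the alpha subunit, had the smallest mean change of the complex and was listed for CD4 cells. It was 2.49, 2.30 and 2.54 in stressed WT mice, against 2.40, 2.77 and 2.36 in WT controls, with overlap (log2 change of -0.035 ± 0.084 SE, adjusted p = 0.73). KO mice, for which it was not listed as a stress gene, held 2.35, 2.63 and 2.48 when stressed and 2.79, 2.91 and 2.72 in controls, and all 3 stressed mice lay below all 3 controls. Atp5b, the beta subunit that carries the catalytic sites, had a log2 change of 0.11 ± 0.072 (SE, adjusted p = 0.21) in CD4 cells of WT mice. Atp5c1, the gamma subunit of the rotor shaft, rose in CD4 cells of WT mice by 0.29 ± 0.085 (SE, adjusted p = 0.0096) and had changes of 0.056 to 0.16 in the other comparisons, without passing. Atp5d, the delta subunit, likewise rose in CD4 cells of WT mice by 0.35 ± 0.075 (SE, adjusted p = 0.0014) and had changes of 0.10 to 0.13 elsewhere.

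Several genes of the stalk and of the membrane part rose. Atp5j2 (subunit f), Atp5h (subunit d), Atp5pb (subunit b) and Atp5j (coupling factor 6) rose in all 4 comparisons. Atp5j2 rose by 0.36 to 0.55, Atp5h by 0.31 to 0.46, Atp5pb by 0.23 to 0.42 and Atp5j by 0.21 to 0.33. Atp5o.1, listed for the subunit that joins stalk and head, rose in 3, by 0.29 and 0.33 in CD4 cells and by 0.28 in CD8a cells of WT mice. Atp5md, a small membrane subunit that helps ATP synthase pair into dimers, rose in CD4 cells of KO mice (0.33) and in CD8a cells of WT mice (0.30). Atp5mpl rose in CD8a cells of KO mice (0.25) and had changes of 0.20 to 0.25 elsewhere. Atp5k and Atp5l, subunits e and g at the dimer interface, passed in none, with changes of 0.10 to 0.23 for Atp5k and of 0.020 to 0.11 for Atp5l.

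The c subunit of the rotor ring is made from 3 genes whose mature proteins are the same, Atp5g1 (chr11:96068852-96075670, minus strand), Atp5g2 (chr15:102662864-102672352, minus strand) and Atp5g3 (chr2:73908447-73911326, minus strand). Atp5g1 rose in WT mice in both cell types and not in KO mice. In CD4 cells it was 2.23, 2.36 and 2.28 in stressed KO mice, against 2.53, 2.28 and 2.09 in KO controls (log2 change of -0.0034 ± 0.086 SE, adjusted p = 0.98). Atp5g1 in WT mice was 2.53, 2.33 and 2.46 in stressed WT mice, against 2.07, 2.12 and 1.99 in WT controls (log2 change of 0.23 ± 0.075 SE, adjusted p = 0.017). The stressed mice overlapped their controls in KO and lay above them in WT. In CD8a cells Atp5g1 was 2.74, 2.53 and 2.11 in stressed KO mice, against 2.73, 2.47 and 2.08 in KO controls (log2 change of 0.020 ± 0.11 SE, adjusted p = 0.91). In WT mice it was 2.86, 2.30 and 2.53 in stressed WT mice, against 2.01, 2.20 and 1.93 in WT controls (log2 change of 0.31 ± 0.091 SE, adjusted p = 0.0088). The pattern of overlap was that of CD4 cells. Without WT control 3 the call in CD4 cells was lost (adjusted p = 0.058). The ends of the Atp5g1 and Atp5g2 transcripts are nearly identical to those of other genes, so how reads were divided is uncertain.

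Atp5g2 was listed for CD8a cells of KO mice, where its level was low. It was 0.0903, 0.0838 and 0.0941 in stressed KO mice, against 0.0457, 0.0603 and 0.0548 in KO controls, without overlap (log2 change of 0.30 ± 0.11 SE, adjusted p = 0.035). WT mice, for which it was not listed as a stress gene, held 0.128, 0.0981 and 0.0558 when stressed and 0.0780, 0.0720 and 0.0735 in controls, with overlap. The call held in 1 of 6 fits that left out 1 mouse, without stressed KO mouse 2 (adjusted p of 0.041 to 0.12 over the 6). It was also lost with a pseudocount of 1, with the block and with the 4 groups in 1 fit. Atp5g3 passed in neither cell type. Atp5g3 in CD4 cells was 2.14, 2.17 and 2.20 in stressed WT mice, against 2.19, 1.92 and 1.83 in WT controls (log2 change of 0.13 ± 0.083 SE, adjusted p = 0.19). In CD8a cells it was 1.63, 1.89 and 1.80 in stressed WT mice, against 1.97, 1.97 and 1.58 in WT controls (log2 change of -0.046 ± 0.10 SE, adjusted p = 0.68), with overlap in both.

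**Figure D2:**
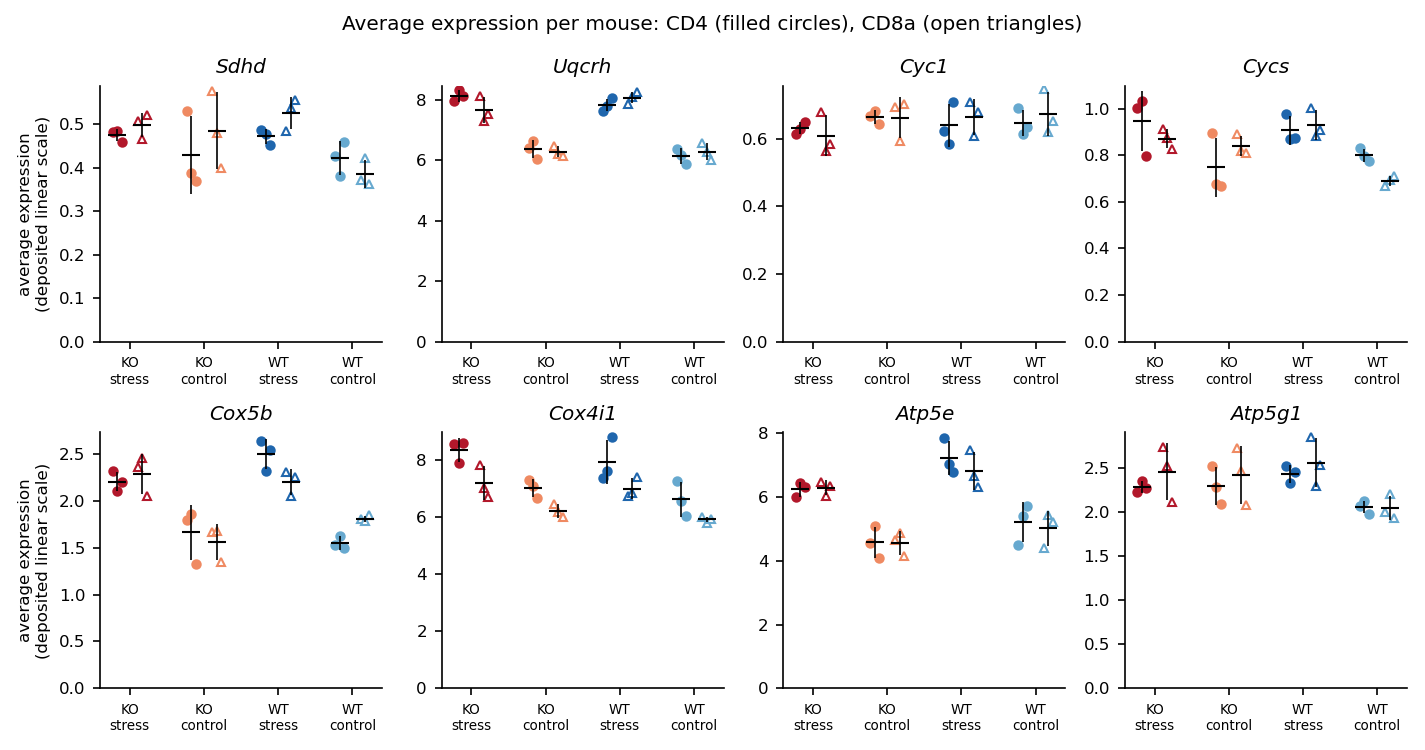
Average expression per mouse (y axis, the deposited linear scale, from 0) of 8 genes in the 4 groups, with CD4 cells as filled circles and CD8a cells as open triangles. Horizontal bars and whiskers are the mean and SD of 3 mice; stressed and control mice lie apart for Uqcrh, Cox5b, Cox4i1 and Atp5e in both cell types and genotypes, overlap for Cyc1, and lie apart for Atp5g1 in WT mice only.

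The sums over complexes III, IV and V were higher in stressed mice in each genotype and cell type, without overlap. The 40 genes of CD4 cells summed to 108 ± 0.623 in stressed KO mice, against 90.6 ± 6.22 in KO controls, and to 112 ± 5.13 in stressed WT mice, against 89.5 ± 1.07 in WT controls (SD, n = 3 each), which is 1.19-fold and 1.25-fold in KO and WT mice. The 35 genes of CD8a cells summed to 94.0 ± 2.78 in stressed KO mice, against 78.1 ± 4.61 in KO controls, and to 96.6 ± 3.41 in stressed WT mice, against 78.8 ± 1.29 in WT controls, which is 1.20-fold and 1.23-fold in KO and WT mice. Complex IV summed to 42.4, 41.1 and 42.8 in stressed KO mice, against 35.7, 36.2 and 31.9 in KO controls in CD4 cells. Its CD4 sums in WT mice were 45.1, 40.4 and 44.7 when stressed, against 34.2, 33.4 and 33.7 in controls, and no stressed mouse overlapped a control. Complex II summed to 1.23, 1.27 and 1.38 in stressed KO mice, against 1.42, 1.23 and 1.05 in KO controls in CD4 cells, with overlap. In WT mice its CD4 sums were 1.39, 1.38 and 1.43 when stressed, against 1.18, 1.15 and 1.21 in controls, without overlap, which is 1.19-fold. In CD8a cells complex II summed to 1.23, 1.09 and 1.12 in stressed KO mice, against 1.31, 1.14 and 0.990 in KO controls, with overlap and 1.00-fold. Its CD8a sums in WT mice were 1.22, 1.24 and 1.25 when stressed, against 0.987, 1.04 and 1.02 in controls, without overlap, which is 1.22-fold. No test was made of a sum, since the genes were chosen with results of these data known.

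Of the genes that the mitochondrion itself encodes for the same complexes, mt-Co1 and mt-Atp8 fell in all 4 comparisons and mt-Cytb fell in 1. The other mitochondrial genes of complex IV, mt-Co2 and mt-Co3, had no values in either cell type, so mt-Co1 does not stand for them. Cytochrome c oxidase subunit 1, mt-Co1, the catalytic subunit of complex IV, was 6.04, 6.02 and 5.78 in stressed KO mice, against 12.1, 12.0 and 12.7 in KO controls in CD4 cells (log2 change of -1.03 ± 0.063 SE, adjusted p = 1.3e-07). In WT mice it was 5.69, 5.78 and 6.11 in stressed WT mice, against 13.5, 11.7 and 11.7 in WT controls (log2 change of -1.05 ± 0.073 SE, adjusted p = 1.5e-06). In CD8a cells mt-Co1 changed by -0.99 ± 0.065 (SE) in KO and -1.04 ± 0.071 in WT mice, with no overlap in any comparison. The ATP synthase subunit mt-Atp8 fell by 1.18 and 1.32 log2 units in CD4 cells of KO and WT mice and by 1.05 and 1.36 in CD8a cells. The cytochrome b gene of complex III, mt-Cytb, was listed for 3 of the comparisons and fell in 1 of them, in CD8a cells of KO mice (log2 change of -0.20 ± 0.061 SE, adjusted p = 0.015). Its changes in WT mice were -0.088 ± 0.063 (SE, adjusted p = 0.24) in CD4 and -0.14 ± 0.064 (SE, adjusted p = 0.069) in CD8a cells. The other ATP synthase subunit, mt-Atp6, was listed for none of the stress comparisons. In the fit of the 4 groups together it had log2 changes of -0.46 ± 0.16 (SE, adjusted p = 0.033) and -0.25 ± 0.16 (SE, adjusted p = 0.23) in CD4 cells of KO and WT mice and of -0.32 ± 0.15 (SE, adjusted p = 0.088) and -0.21 ± 0.15 (SE, adjusted p = 0.25) in CD8a cells. The 4 mitochondrially encoded genes of complexes III to V with values summed to 0.835-fold and 0.813-fold of the control mean in CD4 cells of KO and WT mice and to 0.774-fold and 0.780-fold in CD8a cells.

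**Figure D3:**
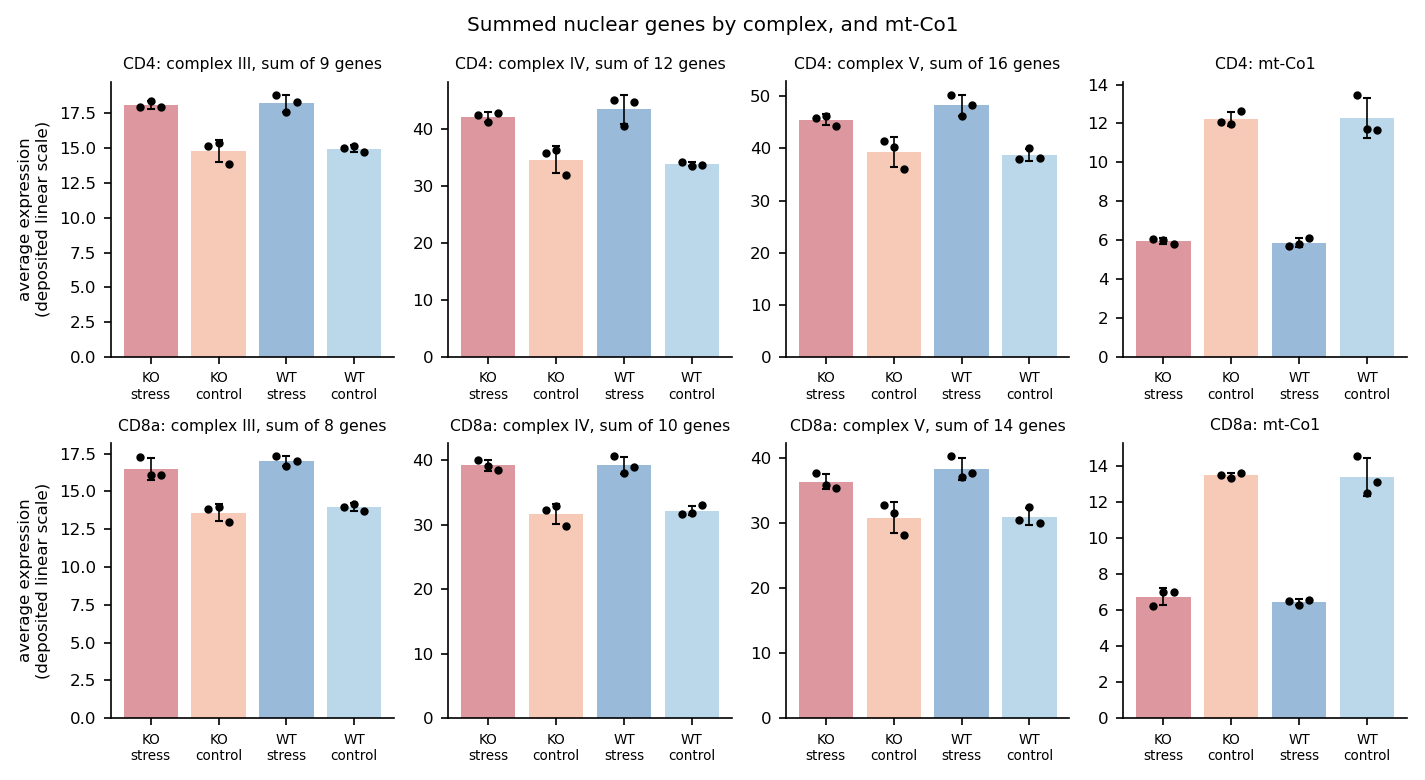
Summed average expression of the nuclear genes of complexes III, IV and V, and the level of mt-Co1 (right), in CD4 (top) and CD8a cells (bottom); bars are means of 3 mice, whiskers SD and points single mice. The 3 sums are higher in stressed than in control mice of each genotype, and mt-Co1 is lower, at 5.95 and 5.86 in stressed KO and WT mice of the CD4 panel against 12.2 and 12.3 in their controls.

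Other genes moved in the same mice, and their part in the results above was not tested. Cytosolic ribosomal protein genes, of which 88 had values in CD4 and 90 in CD8a cells, summed to 1.40-fold in CD4 cells of KO mice, 1.31-fold in those of WT mice, 1.35-fold in CD8a cells of KO mice and 1.38-fold in those of WT mice. Per 100 units of that ribosomal sum, the genes of complexes II to V and cytochrome c held 3.74 in stressed KO mice and 4.40 in KO controls of CD4 cells, and 3.67 in stressed WT mice and 3.85 in WT controls. In CD8a cells they held 2.90 in stressed KO mice and 3.24 in KO controls, and 2.76 in stressed WT mice and 3.10 in WT controls. As a share of all listed genes they held 1.33% in stressed KO mice against 1.22% in KO controls, and 1.37% in stressed WT mice against 1.19% in WT controls, in CD4 cells. The shares in CD8a cells were 1.16% in stressed KO mice against 1.05% in KO controls, and 1.18% in stressed WT mice against 1.04% in WT controls. With ribosomal and mitochondrial genes taken out and the rest rescaled, the median change of all genes tested moved to 0.25 and 0.27 in CD4 cells of KO and WT mice and to 0.24 and 0.25 in CD8a cells. The medians of the genes described here moved to 0.41 and 0.40 and to 0.40 and 0.46 with it, so they lay above the median of all genes on both scales.

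Summed levels of cell type marker lists differed between groups, and their part in the changes of respiratory genes was not tested. T cell markers (8 of 11 listed) in CD4 cells summed to 55.6 to 60.0 in stressed KO mice and 49.4 to 55.9 in KO controls, and to 53.8 to 60.1 in stressed WT mice and 49.3 to 50.9 in WT controls. Stressed WT mice lay above WT controls for that sum, and KO mice overlapped. In CD4 cells B cell markers (8 of 13 listed) summed to 3.46 to 4.19 in stressed KO mice and 7.65 to 11.6 in KO controls, and to 4.41 to 7.26 in stressed WT mice and 3.50 to 9.16 in WT controls. Neutrophil markers (4 of 12) summed to 0.225 to 0.449 in stressed KO mice and 0.0796 to 0.280 in KO controls, and to 0.116 to 0.323 in stressed WT mice and 0.0118 to 0.0304 in WT controls, and Ngp and Lcn2 were at 0 in at least 1 mouse. Natural killer markers (3 of 9: Gzma, Nkg7 and Prf1) summed to 2.79 to 5.91 in stressed KO mice and 1.29 to 2.04 in KO controls, and to 1.81 to 5.26 in stressed WT mice and 0.714 to 1.30 in WT controls. All stressed mice thus lay above the controls of their genotype for the natural killer sum, and for the neutrophil sum this held in WT mice only. Ncr1, Klrb1c, Klrk1, Klra8 and Eomes of the natural killer list had no values in either cell type. The natural killer sum therefore does not tell natural killer cells from T cells that express the same genes. The B cell sum was lower in all stressed KO mice than in KO controls. Monocyte, macrophage and dendritic markers (6 of 14, with Itgax at 0 in at least 1 mouse) summed to 2.71 to 3.22 in stressed KO mice and 2.13 to 3.78 in KO controls, and to 2.34 to 2.83 in stressed WT mice and 1.48 to 1.67 in WT controls. Erythroid and platelet markers (4 of 8, with Hbb-bt at 0 in at least 1 mouse) summed to 1.70 to 5.08 in stressed KO mice and 0.627 to 5.52 in KO controls, and to 0.197 to 2.36 in stressed WT mice and 0.0891 to 0.141 in WT controls. Stressed WT mice also lay above WT controls for the monocyte and the erythroid sums, and KO mice overlapped for both.

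CD8a cells showed the same kinds of markers. T cell markers (7 of 11) summed to 53.0 to 58.0 in stressed KO mice and 53.5 to 60.1 in KO controls, and to 55.4 to 57.1 in stressed WT mice and 53.9 to 57.7 in WT controls, with overlap in both genotypes. B cell markers (9 of 13) summed to 5.17 to 6.40 in stressed KO mice and 10.6 to 14.0 in KO controls, and to 4.67 to 6.98 in stressed WT mice and 7.11 to 13.0 in WT controls. Neutrophil markers (5 of 12, with Ngp, Camp and Lcn2 at 0 in at least 1 mouse) summed to 0.228 to 0.302 in stressed KO mice and 0.0768 to 0.248 in KO controls, and to 0.0981 to 0.265 in stressed WT mice and 0.00618 to 0.0474 in WT controls. All stressed mice lay below the controls of their genotype for the B cell sum. Monocyte markers (3 of 14) summed to 2.05 to 2.50 in stressed KO mice and 1.81 to 2.83 in KO controls, and to 2.01 to 2.27 in stressed WT mice and 1.39 to 1.84 in WT controls. Natural killer markers (2 of 9, Klre1 and Nkg7) summed to 7.09 to 8.40 in stressed KO mice and 5.25 to 6.68 in KO controls, and to 6.34 to 7.91 in stressed WT mice and 4.74 to 5.63 in WT controls. Here too that sum does not tell natural killer cells from T cells that express these genes. Erythroid and platelet markers (4 of 8, with Hba-a2 and Hbb-bt at 0 in at least 1 mouse) summed to 1.39 to 15.9 in stressed KO mice and 0.351 to 2.77 in KO controls, and to 0.228 to 0.688 in stressed WT mice and 0.0342 to 0.850 in WT controls.

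Related genes of mitochondrial energy metabolism were counted from lists written by pathway. Their counts stand beside the 19.5%, 31.0%, 17.9% and 26.7% of all genes that rose in CD4 cells of KO and WT mice and in CD8a cells of KO and WT mice, and are given in that order. Nuclear genes of complex I, the first proton pump of the chain, rose for 17 of 37 in CD4 cells of KO mice, 30 of 40 in those of WT mice, 17 of 39 in CD8a cells of KO mice and 23 of 35 in those of WT mice, and none fell. Their sums were 1.21-fold, 1.29-fold, 1.20-fold and 1.23-fold in the same order of groups. Assembly factors of complexes II to V rose in 1 of 17, 6 of 19, 4 of 17 and 5 of 16, below the share of all genes in the first and near it in the others, and none fell. Coa3, which helps the first subunit of complex IV to mature, had the largest rise of these in CD4 cells of WT mice (log2 change of 0.51 ± 0.10 SE, adjusted p = 0.00073). Among carriers and channels that serve ATP synthase, 1 of 5, 2 of 6, 0 of 5 and 1 of 5 rose, led by Vdac2 of the outer membrane (log2 change of 0.40 ± 0.10 SE, adjusted p = 0.0035 in CD4 cells of WT mice).

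Lists from upstream of the chain and from outside mitochondria held few genes each, so their counts are given without a reading against the share of all genes. Genes of the tricarboxylic acid cycle rose in 0 of 6, 3 of 7, 0 of 3 and 0 of 2, the largest being fumarate hydratase, Fh1 (log2 change of 0.37 ± 0.15 SE, adjusted p = 0.044 in CD4 cells of WT mice). Glycolysis genes rose in 1 of 7, 1 of 9, 1 of 7 and 0 of 7, with Gapdh the one in CD4 cells of WT mice (log2 change of 0.44 ± 0.10 SE, adjusted p = 0.0027). Genes of ubiquinone synthesis and electron entry rose in 0 of 2, 1 of 1, 0 of 1 and 0 of 2, the one being the electron transfer flavoprotein subunit Etfb (log2 change of 0.40 ± 0.12 SE, adjusted p = 0.010). The vacuolar ATPase, a rotary enzyme of acidic organelles, had 2 of 8, 3 of 6, 1 of 6 and 1 of 5 genes higher, with Atp6v1f the largest in CD4 cells of WT mice (log2 change of 0.43 ± 0.080 SE, adjusted p = 0.00047). Of 15 regulators of mitochondrial biogenesis 1, 2, 2 and 1 were listed, of which 0 rose and 1 fell each time, where 20.0%, 28.9%, 22.1% and 41.5% of all genes fell. Gabpb2, a partner subunit of the ETS factor GABP, fell in all 4, by 0.72 and 0.92 log2 units in CD4 cells of KO and WT mice and by 0.84 and 0.75 in CD8a cells. Tfam, which packages mitochondrial DNA, was listed for 2 comparisons and had log2 changes of 0.017 ± 0.14 (SE, adjusted p = 0.92) in CD4 cells of WT mice and of -0.048 ± 0.10 (SE, adjusted p = 0.77) in CD8a cells of KO mice.

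Whether loss of S100a9 altered the response was tested as the difference between the stress changes of KO and WT mice, fitted to all 12 mice. No gene of the group passed, 0 of 40 in CD4 and 0 of 35 in CD8a cells, and no gene of any kind did (0.0% of 2999 and 0.0% of 2851, limma). Without KO control 3, 17 of the 2999 genes passed in CD4 cells, and 0 of the 40. At an unadjusted p under 0.05 there was 1 gene in CD4 cells, Atp5g1, with a difference of -0.24 ± 0.11 (SE, adjusted p = 0.49), and 1 in CD8a cells, Cycs, with -0.33 ± 0.12 (SE, adjusted p = 0.65), against 284 and 204 of all genes. The widest differences in CD4 cells ran from -0.27 ± 0.13 (SE) for Cox7a2 to 0.19 ± 0.12 for Uqcr11. In CD8a cells they ran from that of Cycs to 0.26 ± 0.13 for Cox5b. Cox5b had the opposite sign in CD4 cells (-0.26 ± 0.15). The standard error of such a difference had a median of 0.13 log2 units in each cell type, and these p-values do not show that the genotypes responded alike.

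Set side by side, 16 of 33 genes listed for both genotypes rose in both in CD4 cells and 14 of 31 in CD8a cells. Of all genes listed for both genotypes, 290 of 1471 and 275 of 1382 rose in both. In CD4 cells 2 passed in KO mice alone, Atp5md and Uqcrfs1, and 6 in WT mice alone, Atp5c1, Atp5d, Atp5g1, Cox5a, Cox7b and Sdhb. In CD8a cells 4 passed in KO mice alone, Atp5mpl, Cox6b1, Uqcr11 and Uqcrb, and 6 in WT mice alone, Atp5g1, Atp5md, Atp5o.1, Cycs, Sdhd and Uqcrfs1. Atp5g1 was the one gene on the WT list in both cell types. Passing in 1 genotype and not in the other is no test of a difference, which was not called for any of them. Over the genes listed for both genotypes, the median change in CD4 cells was 0.26 in KO and 0.30 in WT mice. In CD8a cells it was 0.25 in KO and 0.27 in WT mice. The change was smaller in KO mice for 24 of 33 genes in CD4 cells and 20 of 31 in CD8a cells, and these counts were not tested.

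KO and WT mice were also compared without stress. The authors listed 7 of these genes for that comparison in CD4 cells and 3 in CD8a cells, and 0 passed in either (all genes, 21.8% of 496 and 8.25% of 303). These shares rest on single mice. Leaving out 1 mouse gave between 2 calls (without WT control 2, KO control 1 or KO control 2) and 252 (without KO control 3) among the 496 genes of CD4 cells, against 108 with all mice, and between 9 (without WT control 2) and 47 (without WT control 1) among the 303 of CD8a cells, against 25. At an unadjusted p under 0.05 there were 2 of 7 and 2 of 3, against 279 of 496 and 167 of 303 of all genes. In CD4 cells all KO controls lay above all WT controls for 1 of 7 genes and below for 1 (all genes, 48.0% and 18.1%), and in CD8a cells for 1 of 3 and 2 of 3 (35.6% and 25.7%). Atp5d in CD4 cells was 2.97, 2.58 and 2.51 in KO controls, against 2.34, 2.29 and 2.11 in WT controls, without overlap (log2 difference of 0.24 ± 0.092 SE, adjusted p = 0.073). With the mouse number as a block, Atp5d passed (adjusted p = 0.045) as the 1 gene of 7, where 46.2% of all 496 genes did. The labels name no pairs of mice, so the fit with the block lends that gene no support. Atp5k, subunit e, was 1.34, 1.13 and 1.25 in KO controls, against 1.34, 1.69 and 1.70 in WT controls in CD4 cells, without overlap although the nearest mice of the genotypes were almost equal (log2 difference of -0.32 ± 0.13 SE, adjusted p = 0.075).

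In CD8a cells Atp5k was 1.19, 1.12 and 1.10 in KO controls, against 1.33, 1.55 and 1.38 in WT controls (log2 difference of -0.29 ± 0.088 SE, adjusted p = 0.066), with KO again below WT in every mouse. Cox7c there was 2.71, 2.97 and 2.56 in KO controls, against 3.00, 3.45 and 3.62 in WT controls (log2 difference of -0.28 ± 0.093 SE, adjusted p = 0.070), and Cox8a 4.70, 5.15 and 4.77 in KO controls, against 4.41, 4.49 and 4.68 in WT controls (log2 difference of 0.10 ± 0.058 SE, adjusted p = 0.16). The 3 groups of values did not overlap. The other listed genes of CD4 cells were Atp5a1, Atp5pb, Cox4i1, Cox8a and Uqcrh, with differences of 0.049 to 0.16, and those of Uqcrh, Cox4i1 and Atp5a1 turned negative when each mouse was centred on its median. For KO against WT mice under stress the authors listed 87 genes in CD4 and 99 in CD8a cells, and 0 of them are genes of complexes II to V or cytochrome c.

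Levels in CD8a and CD4 cells of the same mouse were compared for the 34 genes with values in both. In CD8a cells 2 were higher and 18 lower, against 17.4% higher and 35.3% lower among 2166 genes (limma on the difference within a mouse). The median difference was -0.083 log2 units, against -0.059 over all genes. The authors averaged the cell types separately, and the counts depend on the scale: centred on each mouse's median, 6 were higher and 12 lower (all genes, 25.3% and 22.1%), and with ribosomal and mitochondrial genes taken out 5 were higher and 11 lower (20.5% and 23.5%). The genes higher in CD8a cells were both placed with complex IV by symbol. They were Cox8a, by 0.18 ± 0.023 (SE, adjusted p = 1.2e-06), and Cox7a2l, by 0.13 ± 0.021 (SE, adjusted p = 2.8e-05). The furthest lower were Atp5md (log2 difference of -0.31 ± 0.038 SE, adjusted p = 7.8e-07) and Sdhb (log2 difference of -0.28 ± 0.045 SE, adjusted p = 2.9e-05).

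The lower genes included members of complexes II to V. Sdhb in control mice was 0.732, 0.664 and 0.591 in CD8a cells of KO mice, against 0.885, 0.840 and 0.686 in their CD4 cells, and 0.615, 0.622 and 0.659 in CD8a cells of WT mice, against 0.756, 0.769 and 0.750 in their CD4 cells. Cox4i1 differed by -0.18 ± 0.024 (SE, adjusted p = 3.1e-06), and Atp5c1, Atp5pb, Atp5j, Atp5g3, Atp5k, Atp5j2, Atp5o.1, Atp5h and Atp5d of complex V, Uqcrb, Uqcr10 and Uqcrq of complex III and Cox7c, Cox6b1 and Cox6c of complex IV were lower as well. Cox5b, Cox7b, Cyc1 and Uqcrh differed by at most 0.011 log2 units in either direction, with standard errors of 0.021 to 0.045.

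The stress change did not pass a test of difference between the cell types for any of the 34 genes, where 1 of 2166 genes in all did (0.0462%). At an unadjusted p under 0.05 there were 6 of 34, against 140 of 2166. All 6, namely Uqcrb, Cox6c, Atp5g3, Cox5b, Cox7a2 and Atp5d, had the smaller change in CD8a cells when averaged over the genotypes, as the test does. Within KO mice this did not hold for Cox5b, with 0.53 in CD8a and 0.40 in CD4 cells, or for Cox7a2, with 0.32 and 0.28. The largest was that of Uqcrb, with -0.21 ± 0.069 (SE, adjusted p = 0.54).

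**Figure D4:**
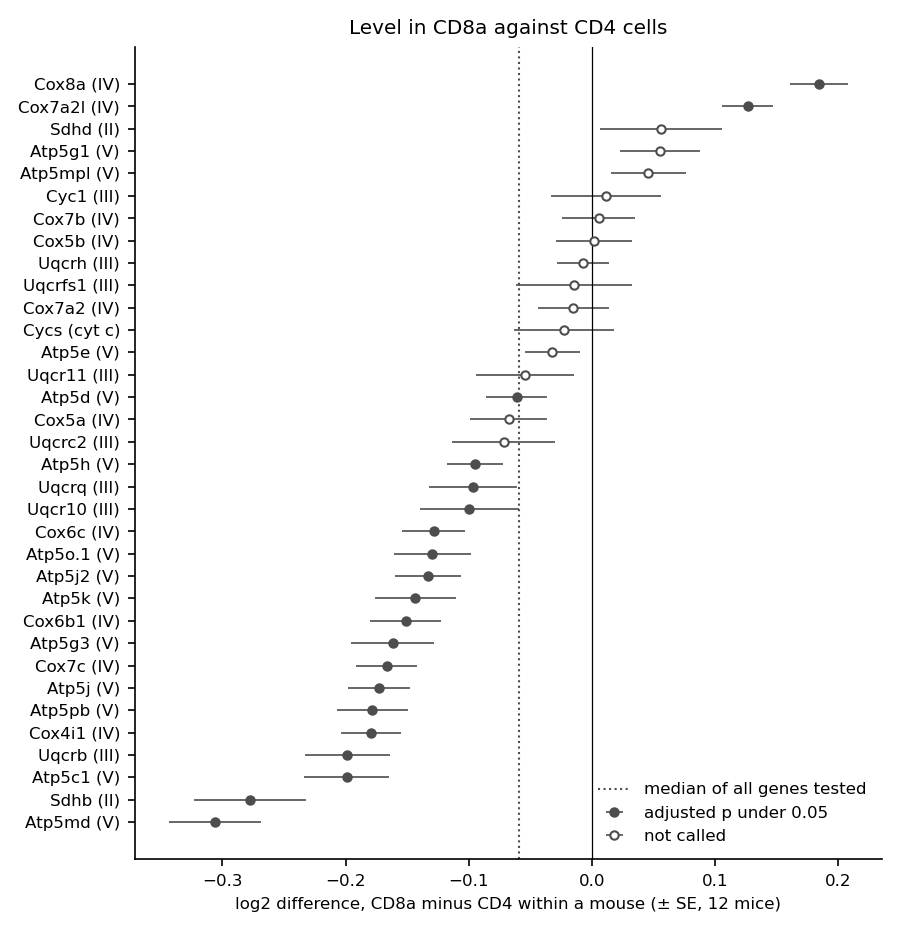
Log2 difference in level between CD8a and CD4 cells of the same mouse (x axis, ± SE over 12 mice) for the 34 genes with values in both, ordered by size, with the complex in brackets. Filled points passed the test, 2 above 0 (Cox8a and Cox7a2l) and 18 below it, and the dotted line at -0.059 is the median of all 2166 genes.

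Transcript length and near-identical copies bear on how these genes are counted. The genes are short: their median transcript was 652 to 702 bases in the 4 stress comparisons, against 1420 to 1783 over all genes tested (GENCODE M21). Genes under 1000 bases rose in 14 of 23 in CD4 cells of KO mice and 17 of 26 in those of WT mice, and in 17 of 23 and 14 of 22 in CD8a cells, against 38.8%, 60.0%, 38.4% and 54.4% of all listed genes of that length. In WT mice these counts lie near the share of all short genes. Genes of 1000 bases or more rose in 3 of 10, 5 of 12, 2 of 9 and 5 of 10, against 9.58%, 20.2%, 8.25% and 16.2% of all longer genes. Median changes of the short genes were 0.28, 0.33, 0.30 and 0.26, against 0.25, 0.33, 0.23 and 0.29 for all short genes, and those of the longer ones 0.16, 0.21, 0.16 and 0.28, against 0.069, 0.060, 0.049 and -0.58. In CD8a cells of WT mice the longer genes thus had a median change as large as that of the short ones. The part of length in the changes was not tested. The last 300 bases of 9 of 40 genes matched another gene at 98% identity or more over at least 90 bases. Those were Atp5g1, Atp5g2, Atp5h, Atp5l, Atp5md, Cox5b-ps, Cox7c, Uqcr11 and Uqcrb, whose counts could be shared with the copy. Replicates varied little, with a median SD of 5.75% to 9.34% of the mean over the genes of a group in CD4 cells and of 6.14% to 7.73% in CD8a cells.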

How the data were processed

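Spleens of 12 mice in 4 groups of 3 were profiled with droplet single-cell RNA-seq, after erythrocyte lysis per the labels' protocols. Cell Ranger 2.1.1 and the mm10 genome are named in the submitters' processing notes. The values used are the authors' deposited signal, an average expression per gene, mouse and cell type on a linear scale; the files name no unit, and the total of 10000 is presumed from the sums. Cell counts, depth and the rule by which genes were listed in each of the 8 tables are not given in the sources used here, and how doublets were treated is not given either. P-values measure the spread between mice.

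Each comparison was fitted over all rows of its table with limma 3.58.1 in R 4.3.3 on log2(value + 0.1), with a mean-variance trend, 2-sided, without a filter. P-values were adjusted by Benjamini-Hochberg over the whole table, with a threshold of 0.05. The interaction used all 4 groups and all genes of a cell type, and CD8a was compared with CD4 on differences within a mouse. The script was tested on simulated data with known changes. The genes, lists and tests were chosen with earlier results of these data known. Values in every mouse were given, per complex, for the gene with the highest mean and those with the largest and smallest mean stress change. Genes called between genotypes, in the interaction or in the cell type difference of the stress effect were to be added, and none was called. The c subunit genes were given too, and Cox7a2l, Cox7c, Cox8a, Atp5d and Atp5k were added after their values were seen.

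Mouse numbers were checked for pairing by correlating same-numbered mice over genes. All pairs passed 0.1 in KO against WT controls of CD4 cells (0.26, 0.23 and 0.33), and in no other comparison. Since several comparisons were checked and the labels name no pairs, this does not establish a pairing. Alternatives changed the pseudocount (0.01 or 1), removed the lowest 25% of genes, centred or rescaled the values, dropped the trend, added the block, fitted the 4 groups together or left out each mouse. Positions and lengths come from GENCODE M21 (GRCm38), promoters from RefSeq (GRCm38.p6), and copies were sought with BLAST 2.17.0 over the last 300 bases of transcripts. Motifs were searched with Biopython 1.88. Positions were found for 40 of the 41 genes, all but Atp5o.1.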

Additional observations from a re-analysis of the deposited data

How the results depend on the processing

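The number of cells behind each average is unknown, so counting error could not be set apart from differences between mice, and 3 mice a group limit what a test can call. The counts of genes that rose ranged over the fits leaving out 1 mouse from 11 to 21 in CD4 cells of KO mice, 18 to 24 in those of WT mice, 11 to 18 in CD8a cells of KO mice and 17 to 20 in those of WT mice; the 2 values of 11 came without KO control 3. Of all genes, 12.8% to 22.6%, 23.2% to 30.0%, 12.6% to 17.8% and 21.9% to 23.8% rose in the fits leaving out 1 mouse, in the same order. With ribosomal and mitochondrial genes removed 29 of 33 rose in CD8a cells of KO mice (all genes, 35.7%). In KO against WT controls, 0 to 1 gene of 7 passed in CD4 cells when 1 mouse was left out (1 without KO control 3), 1 passed with centring (Atp5k, lower) and 1 with the replicate block. Of all 496 genes, 50.8% passed without KO control 3, 27.0% with centring (22.0% lower) and 46.2% with the block. In CD8a cells 0 to 1 of 3 passed when 1 mouse was left out (1 without WT control 1), 2 with centring and 1 with no mean-variance trend. Of all 303 genes, 15.5% passed without WT control 1, 41.6% with centring (39.3% lower) and 20.8% with no trend. The replicate block gave 21, 21, 20 and 19 genes in CD4 cells of KO and WT mice and CD8a cells of KO and WT mice, where the mouse numbers pair nothing. Of all genes, 21.5%, 27.8%, 19.5% and 22.7% rose with the block, in the same order. The CD8a against CD4 level gave 17 to 21 calls among 34 genes without 1 mouse, against 48.1% to 52.3% of all 2166 genes.

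The log2 change of the sum was 0.25, 0.33, 0.27 and 0.29 in CD4 cells of KO and WT mice and CD8a cells of KO and WT mice. It was 0.41, 0.47, 0.43 and 0.49 after rescaling without ribosomal and mitochondrial genes, and 0.42, 0.40, 0.48 and 0.53 when divided by each mouse's median. Leaving out 1 mouse gave 0.20 to 0.28, 0.30 to 0.36, 0.22 to 0.30 and 0.27 to 0.32. The median change of all genes moved with the scale, to 0.25, 0.27, 0.24 and 0.25 after rescaling.

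Changes near 0 turned sign on those scales. With centring and with rescaling they became 0.048 and 0.11 for Cyc1, 0.011 and 0.078 for Cox6a1 and 0.030 and 0.098 for Atp5a1 in CD4 cells of WT mice, 0.013 and 0.15 for Atp5g1 in those of KO mice, 0.18 and 0.16 for Cyc1 and 0.15 and 0.14 for Atp5g3 in CD8a cells of WT mice, and 0.0059 and 0.12 for Sdhb in those of KO mice. In KO against WT controls of CD4 cells, Uqcrh became -0.22 with centring and -0.0050 with rescaling, Cox4i1 -0.18 and Atp5a1 -0.11 with centring. Without 1 mouse at a time, ranges that crossed 0 in CD4 cells of WT mice were -0.084 to 0.038 for Cyc1, -0.12 to 0.024 for Cox6a1 and -0.075 to 0.035 for Atp5a1. Those in CD4 cells of KO mice were -0.070 to 0.093 for Sdhb and -0.066 to 0.063 for Atp5g1. Those in CD8a cells were -0.064 to 0.051 for Cyc1 and -0.15 to 0.0098 for Atp5g3 in WT mice, and -0.096 to 0.041 for Sdhb, -0.066 to 0.15 for Sdhd and -0.083 to 0.12 for Atp5g1 in KO mice. The cause was not tested. Of the other values recomputed, 321 kept direction and side of the threshold, 10 came to pass it and 7 no longer did; without 1 mouse at a time these were 249, 2 and 17.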
